A study of Mus musculus with 12 samples.

Results

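The 10 genes described here encode cell-surface receptors of Wnt signalling in mouse tibia shafts: the co-receptors *Lrp4*, *Lrp5* and *Lrp6* and the Frizzled receptors *Fzd1*, *Fzd2*, *Fzd4*, *Fzd6*, *Fzd7*, *Fzd8* and *Fzd9*. They were chosen by their gene symbols among the 47069 genes of the count matrix, and all 10 had enough counts to be tested in every comparison. RNA came from 12 male mice aged 8 weeks, 4 in each of 3 groups, with 1 library per mouse. Jrt;Sost-ko mice carry the dominant Jrt allele of *Col1a1*, a splice-site variant that models severe osteogenesis imperfecta, and lack *Sost* (labelled Col1a1Jrt/+ with Sost-/-). Jrt;Sost-het mice carry the same Jrt allele. The labels name only Col1a1Jrt/+ for them, and their Sost+/- genotype is known from the study's description of its breeding. WT mice have wild-type alleles at both loci and came from a separate colony of the same mixed FVB and C57BL6 background, so that colony and genotype cannot be told apart in a comparison with WT. The constitutive loss of *Sost* and the Jrt allele are present in all cells, and littermates with the Jrt allele and both copies of *Sost* were not among the 12 libraries.

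Wnt ligands bring a Frizzled receptor and Lrp5 or Lrp6 together at the cell surface. The complex then recruits Dishevelled and Axin, which spares β-catenin from degradation and lets it enter the nucleus. In bone, this pathway promotes formation by osteoblasts. Sclerostin, the product of *Sost*, is secreted by osteocytes and blocks the pathway by binding Lrp5 and Lrp6, while Lrp4 on bone cells holds sclerostin in place and assists its action. These 3 co-receptors are therefore the proteins on which the missing sclerostin of Jrt;Sost-ko mice would act. Frizzled receptors bind the Wnt ligand itself through an extracellular cysteine-rich domain.

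Reads counted on genes ranged from 24366061 to 44418863 per library. Values are given as CPM, counts scaled to library size after TMM normalization over the 12 libraries. *Sost* had 50.7, 72.3, 62.2 and 28.5 CPM in WT mice 1 to 4, 28.0, 34.6, 70.4 and 26.8 CPM in Jrt;Sost-het mice 1 to 4, and 0.571, 1.28, 0.508 and 0.326 CPM in Jrt;Sost-ko mice 1 to 4. Every library of the last group lay far below all others, while the values of Jrt;Sost-het and WT mice overlapped. Bone cell markers (12 genes, among them *Bglap*, *Dmp1* and *Phex*) were present in all libraries, with a summed level between 1910 and 4980 CPM. Libraries also held other tissue. The 16 skeletal muscle markers summed to between 36.6 CPM in Jrt;Sost-ko mouse 4 and 34500 CPM in WT mouse 4. The 8 neutrophil markers summed to 15300 CPM or more in every group. The 10 epidermis markers summed to at most 8.36 CPM in Jrt;Sost-het mice and 7.73 CPM in Jrt;Sost-ko mice but reached 618 CPM in WT, where WT mice 3 and 4 had mean log2 CPM of 0.29 and 1.85 against -3.10 to -2.52 in the other 10 mice. Fold changes of the 10 receptor genes against WT, and their slopes on marker levels, are therefore also given without WT mice 3 and 4. Levels, ratios, likeness between genes and values of other genes are given only with both mice included. In bulk RNA, fewer cells of a type and less RNA per cell cannot be told apart.

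The genes lie on 9 chromosomes of GRCm38 and are all annotated as protein coding. The Frizzled genes are compact. A single exon holds the whole coding sequence of *Fzd1* (ENSMUSG00000044674, chr5:4753839-4758035, minus strand), *Fzd2* (ENSMUSG00000050288, chr11:102604396-102608058, plus strand), *Fzd7* (ENSMUSG00000041075, chr1:59482424-59486955, plus strand), *Fzd8* (ENSMUSG00000036904, chr18:9212163-9218136, plus strand) and *Fzd9* (ENSMUSG00000049551, chr5:135248938-135251230, minus strand). *Fzd4* (ENSMUSG00000049791, chr7:89404355-89413134, plus strand) has 2 coding exons and *Fzd6* (ENSMUSG00000022297, chr15:39006034-39038188, plus strand) has 6. *Fzd2* is the only member on the chromosome of *Sost* and *Col1a1*, 637 kb from *Sost*.

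The co-receptor genes are long and split into many exons. *Lrp4* (ENSMUSG00000027253) lies at chr2:91457511-91513779 on the plus strand with 38 coding exons, *Lrp5* (ENSMUSG00000024913) at chr19:3584828-3686564 on the minus strand with 23, and *Lrp6* (ENSMUSG00000030201) at chr6:134446476-134566965 on the minus strand with 23.

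RefSeq sequences upstream of the gene start were at hand for 4 of the 10 genes. For *Fzd9* only 67 bases remained upstream of the gene start, so its sequence is not shown. The sequences of *Fzd1*, *Fzd4* and *Fzd7* are shown from 5′ to 3′ on the strand of each gene. They run up to the base before the RefSeq start or, for *Fzd4*, before the GENCODE start. They cover chr5:4758217-4758466 (minus strand), chr7:89404116-89404354 (plus strand) and chr1:59481897-59482146 (plus strand) of GRCm38.p6. Capitals mark CTTTGA or CTTTGT on either strand, the core letters that TCF and LEF factors, the nuclear partners of β-catenin, are known to bind.
Fzd1: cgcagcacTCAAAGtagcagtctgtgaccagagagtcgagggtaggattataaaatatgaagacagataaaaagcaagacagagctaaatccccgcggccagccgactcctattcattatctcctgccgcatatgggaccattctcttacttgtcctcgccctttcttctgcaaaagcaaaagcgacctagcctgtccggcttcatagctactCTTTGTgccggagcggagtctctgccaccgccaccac
Fzd4: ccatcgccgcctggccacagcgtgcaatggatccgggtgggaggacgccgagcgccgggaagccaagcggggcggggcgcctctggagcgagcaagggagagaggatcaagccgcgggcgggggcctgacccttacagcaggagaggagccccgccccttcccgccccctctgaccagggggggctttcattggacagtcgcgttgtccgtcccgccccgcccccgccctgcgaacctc
Fzd7: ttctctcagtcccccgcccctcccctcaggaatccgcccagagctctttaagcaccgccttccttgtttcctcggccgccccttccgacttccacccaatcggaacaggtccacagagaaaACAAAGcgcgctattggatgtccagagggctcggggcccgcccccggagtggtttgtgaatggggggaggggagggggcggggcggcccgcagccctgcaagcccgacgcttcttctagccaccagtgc
*Fzd1* held 2 such matches, *Fzd7* held 1 and *Fzd4* held 0. Of 32851 RefSeq promoters, 27.6% held at least 1 match within 250 bases, so that a match is common. The upstream sequence of *Fzd4* was 72.8% G and C and that of *Fzd7* 65.2%, against 51.2% for *Fzd1* and a median of 52.4% over all promoters.

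To compare levels between genes, CPM was divided by the length of the annotated exons. Averaged over the 12 mice, *Lrp5* had the highest level, 8.10 ± 0.833 CPM per kb (SD, n = 12), followed by *Lrp4* with 6.66 ± 1.20 and *Lrp6* with 4.55 ± 0.5 CPM per kb. *Lrp5* was above *Lrp4* in 12 of 12 mice, by 1.02 to 1.61 times, and *Lrp4* was above *Lrp6* in 12 of 12 mice, by 1.14 to 1.69 times. Per kb, the order of the 3 co-receptors was thus the same in every mouse of every group, but it rests on the exon lengths used. In CPM alone, *Lrp4* was above *Lrp5* in WT mouse 4 (91.8 against 86.7). *Lrp6* was above *Lrp4* in WT mouse 2 (51.5 against 48.9) and Jrt;Sost-ko mouse 4 (53.2 against 46.8). In the remaining mice the order was the same in CPM.

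Among the Frizzled genes, *Fzd1* (4.32 ± 0.746 CPM per kb) and *Fzd7* (3.88 ± 0.613) had the highest levels per kb. They belong with *Fzd2* to a subfamily of closely related receptors. Next came *Fzd4* (3.03 ± 0.797), the receptor for Norrin and for vessel growth in the retina. The order of these genes rests on exon length. In CPM alone *Fzd4* had the highest mean of the Frizzled members, 20.4, beside 18.1 for *Fzd1* and 17.6 for *Fzd7*. A clear step followed below *Fzd4*. *Fzd4* was above *Fzd6* in 12 of 12 mice, on average by 1.88 times. *Fzd6*, known for planar cell polarity and hair patterning, had 1.59 ± 0.311 CPM per kb, *Fzd8* 1.46 ± 0.403, *Fzd2* 1.37 ± 0.389 and *Fzd9*, a receptor needed for normal bone formation in mice, 1.31 ± 0.617 (SD, n = 12 for each).

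Several neighbours in this order did not separate. *Lrp6* was above *Fzd1* in only 7 of 12 mice. *Fzd1* was above *Fzd7* in 10 and *Fzd7* above *Fzd4* in 11 of 12 mice. Among the 4 lowest genes, *Fzd6* was above *Fzd8* in 9, *Fzd8* above *Fzd2* in 8 and *Fzd2* above *Fzd9* in 8 of 12 mice, so that their order was not resolved. *Fzd1*, *Fzd7* and *Fzd4* made up on average 25.7%, 23.1% and 17.8% of the summed level of the 7 Frizzled genes.

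**Figure D1:**
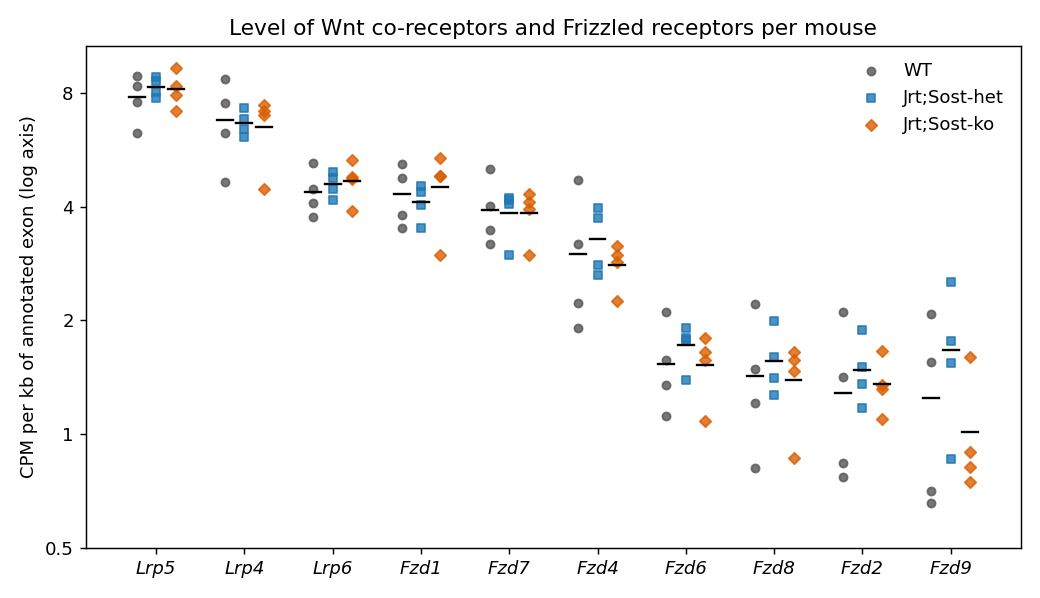
Level of each receptor gene in CPM per kb of annotated exon (log axis), 1 symbol per mouse and a short line at the mean of 4 mice per group, with genes in order of their mean over 12 mice. *Lrp5*, *Lrp4* and *Lrp6* average 8.10, 6.66 and 4.55 CPM per kb, and a step separates *Fzd4* at 3.03 from *Fzd6* at 1.59.

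The comparison of Jrt;Sost-ko with Jrt;Sost-het mice asks what loss of *Sost* does in bone with the Jrt allele. None of the 10 receptor genes passed the test between the groups. For *Lrp5*, the values were 78.4, 85.7, 84.1 and 75.6 CPM in Jrt;Sost-het mice 1 to 4 and 77.03, 81.6, 91.0 and 69.95 CPM in Jrt;Sost-ko mice 1 to 4. The groups overlapped, and the Jrt;Sost-ko mice held both the lowest and the highest value. The log2 fold change was -0.018 (standard error, SE, 0.0832, 95% confidence interval -0.21 to 0.17, edgeR adjusted p = 0.972), an interval that runs from 0.867-fold to 1.13-fold.

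*Lrp6* had 67.5, 65.3, 57.0 and 61.0 CPM in Jrt;Sost-het mice and 65.8, 64.8, 72.8 and 53.2 CPM in Jrt;Sost-ko mice. Again the group that lacks *Sost* held both the lowest and the highest value. The log2 fold change was 0.032 (SE 0.0979, 95% confidence interval -0.19 to 0.25, edgeR adjusted p = 0.962), an interval from 0.877-fold to 1.19-fold. *Lrp4* had 71.9, 76.9, 67.6 and 64.2 CPM in Jrt;Sost-het mice and 73.4, 75.4, 78.1 and 46.8 CPM in Jrt;Sost-ko mice. Mouse 4 of the latter group was far below the other 7 mice, which lay between 64.2 and 78.1 CPM. The log2 fold change was -0.035 (SE 0.150, 95% confidence interval -0.38 to 0.31, edgeR adjusted p = 0.971).

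*Fzd9* showed the largest difference among the 10 genes. It had 5.78, 1.97, 3.54 and 4.06 CPM in Jrt;Sost-het mice 1 to 4 and 1.71, 1.87, 3.66 and 2.06 CPM in Jrt;Sost-ko mice 1 to 4. The groups overlapped, since mice 3 and 4 that lack *Sost* lay within the range of the Jrt;Sost-het group. The log2 fold change of -0.71 (SE 0.357, 95% confidence interval -1.52 to 0.093) had an unadjusted p of 0.0761 and an adjusted p of 0.901 in edgeR. These values rest on 48 to 153 counts per library, the fewest of the 10 genes, and with 1 mouse left out the log2 fold change ran from -1.02 (without Jrt;Sost-ko mouse 3) to -0.45 (without Jrt;Sost-het mouse 1).

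*Fzd4* had 17.8, 25.1, 18.8 and 26.7 CPM in Jrt;Sost-het mice and 21.1, 19.2, 20.1 and 15.1 CPM in Jrt;Sost-ko mice. The Jrt;Sost-ko values, other than that of mouse 4, fell inside the wider range of the Jrt;Sost-het mice, and the log2 fold change was -0.23 (SE 0.160, edgeR adjusted p = 0.901). The other Frizzled genes had log2 fold changes of 0.13 for *Fzd1*, -0.0055 for *Fzd7*, -0.13 for *Fzd2*, -0.17 for *Fzd6* and -0.17 for *Fzd8*. Their 95% confidence intervals all included 0 and reached from -0.67 at the lowest bound, that of *Fzd8*, to 0.52 at the highest, that of *Fzd1*.

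Of the 10 genes, 0 had an adjusted p under 0.05 and 0 had an unadjusted p under 0.05 in edgeR. Over all 16739 genes tested, 0.00597% passed the adjusted threshold, which is *Sost* alone, and 5.02% had an unadjusted p under 0.05. DESeq2 called 0 of the 10 genes and 7 of all genes, and limma-voom called 0 of either, *Sost* included. At an unadjusted p under 0.05 DESeq2 had 1 of the 10, beside 3.46% of all genes, and limma-voom had 0, beside 8.86%. No receptor gene separated the groups without overlap, as 3.20% of all genes did. The median log2 fold change of the 10 genes was -0.08, beside 0.0013 over all genes. It was -0.17 without Jrt;Sost-ko mouse 3, -0.033 without Jrt;Sost-het mouse 1, 0.013 without Jrt;Sost-ko mouse 4 and 0.011 with the muscle score as a covariate, so that its sign was not stable. In simulated counts with the depth and spread of this comparison, the test called 61.8% of 68 genes changed by 1 on the log2 scale. It called 5.71% of 70 genes changed by 0.5, so that changes of the latter size would mostly go uncalled. These genes were changed together, beside 62 changed by 2, which makes the adjusted threshold easier to pass. In the real comparison *Sost* alone passed, so these shares cannot be carried over to a change in a single receptor gene.

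**Figure D2:**
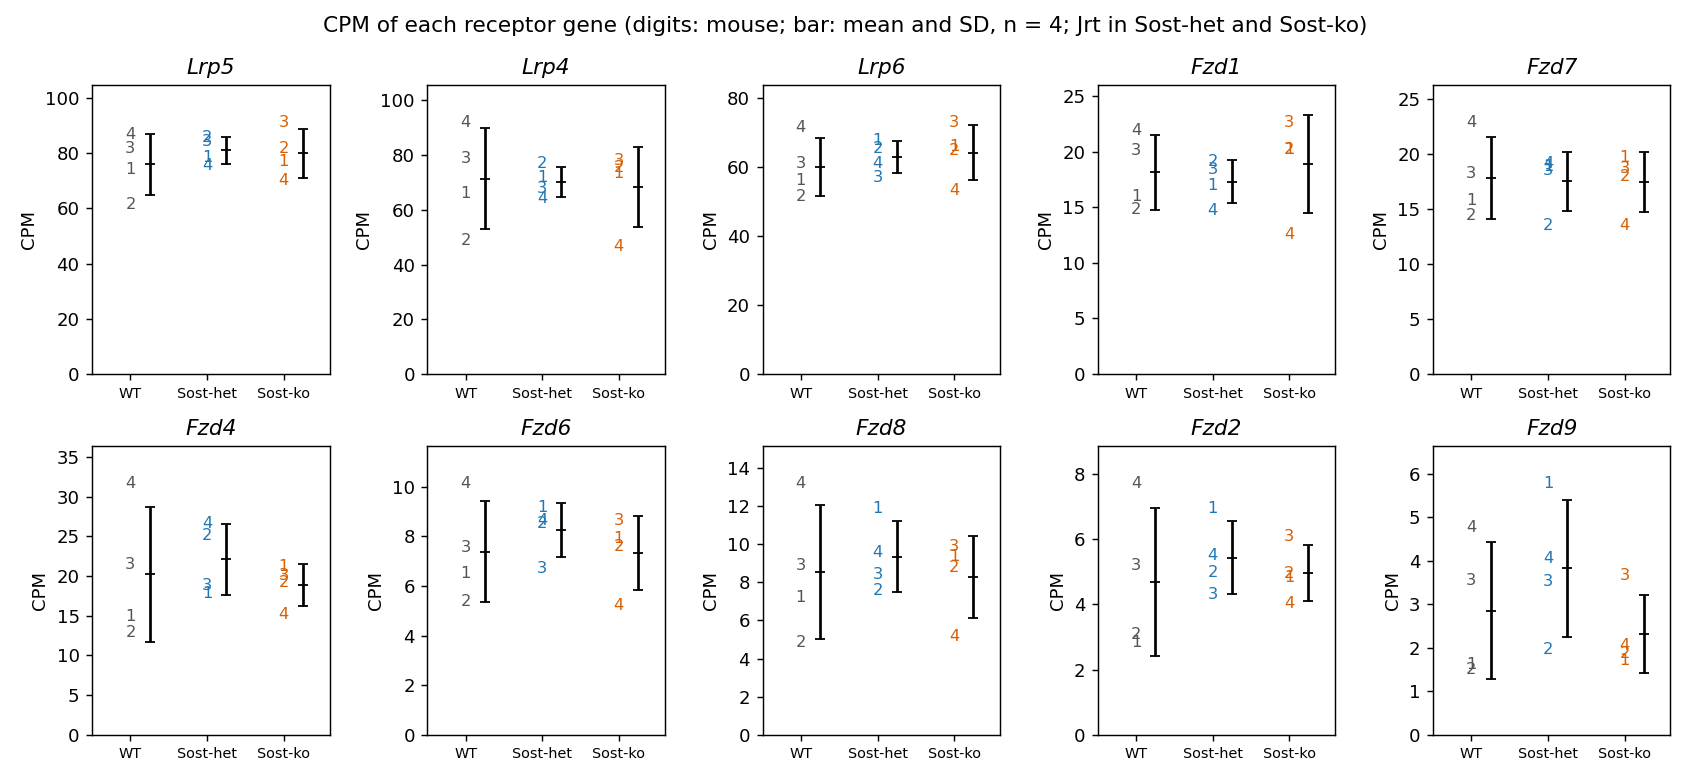
CPM of the 10 receptor genes in each mouse, drawn as the number of the mouse within its group, with the mean and SD of 4 mice beside it, and with each axis starting at 0. The groups overlap in every gene, and WT mouse 2 and Jrt;Sost-ko mouse 4 hold the lowest value of 9 of the 10 genes.

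Jrt;Sost-het mice differ from WT by the Jrt allele, the loss of 1 copy of *Sost* and the colony. Jrt;Sost-ko mice differ from WT by the Jrt allele, the loss of both copies and the colony. These cannot be told apart here, and both comparisons use the same WT mice. *Lrp5* had 74.0, 61.3, 81.6 and 86.7 CPM in WT mice 1 to 4, a range that contained 7 of the 8 values of the Jrt mice. The log2 fold change was 0.097 (SE 0.107, 95% confidence interval -0.15 to 0.34) for Jrt;Sost-het and 0.08 (SE 0.123, 95% confidence interval -0.20 to 0.36) for Jrt;Sost-ko mice. *Lrp6* had 56.0, 51.5, 60.9 and 71.3 CPM in WT mice, with log2 fold changes of 0.071 (SE 0.109) and 0.10 (SE 0.127). *Lrp4* had 65.8, 48.9, 78.9 and 91.8 CPM in WT mice, a spread that took in all values of the Jrt mice except that of Jrt;Sost-ko mouse 4. Its log2 fold changes were -0.021 (SE 0.176) and -0.055 (SE 0.222).

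Among the Frizzled genes, *Fzd4* and *Fzd8* spread widely in WT mice. *Fzd4* had 14.9, 12.9, 21.4 and 31.7 CPM and *Fzd8* had 7.21, 4.85, 8.86 and 13.2 CPM in WT mice 1 to 4. In both, WT mouse 4 was the highest and WT mouse 2 the lowest of all 12 mice. For Jrt;Sost-het against WT, the log2 fold changes of the 7 Frizzled genes lay between -0.066 for *Fzd1* and 0.42 for *Fzd9*. For Jrt;Sost-ko against WT, they lay between -0.29 for *Fzd9* and 0.083 for *Fzd2*. The intervals were widest for *Fzd9*, from 0.655-fold to 2.74-fold for Jrt;Sost-het mice and from 0.414-fold to 1.61-fold for Jrt;Sost-ko mice.

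In both comparisons edgeR called 0 of the 10 genes, with an adjusted p of 1 for each, and 0 had an unadjusted p under 0.05. DESeq2 and limma-voom called 0 of them in either comparison. Over all genes, DESeq2 called 4 of 30263 for Jrt;Sost-het and 18 of 20180 for Jrt;Sost-ko mice. Limma-voom called 0 of 16775 and 2 of 17155. In edgeR, 0% of all genes tested passed the adjusted threshold for Jrt;Sost-het mice and 0.00583%, again *Sost* alone, for Jrt;Sost-ko mice. An unadjusted p under 0.05 in edgeR was reached by 2.14% and 3.89%. Groups did not overlap for 1.54% and 2.40% of all genes and for none of the 10. The median log2 fold change of the 10 genes was 0.11 for Jrt;Sost-het mice and -0.016 for Jrt;Sost-ko mice. With 1 mouse left out, the first ranged from -0.0097 (without WT mouse 2) to 0.26 (without WT mouse 4) and the second from -0.12 to 0.18 (without the same WT mice in turn).

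Values against WT depended on WT mice 3 and 4. Without both, all 10 genes were higher in Jrt;Sost-het than in WT, with log2 fold changes from 0.19 for *Fzd1* to 1.31 for *Fzd9* and a median of 0.40. In that fit 8 of the 10 were under an unadjusted p of 0.05, a level that 19.8% of all genes reached, but the lowest adjusted p among the 10 was 0.137 and 0 of them were called. Under the other alternatives the lowest adjusted p was 0.526 to 1. In Jrt;Sost-ko mice, without the same WT mice, all 10 were also higher, with a median of 0.31, and 2 had an unadjusted p under 0.05, beside 12.7% of all genes. The WT mice left in these fits were WT mice 1 and 2, which had the lowest bone cell markers of all 12 mice.

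**Figure D3:**
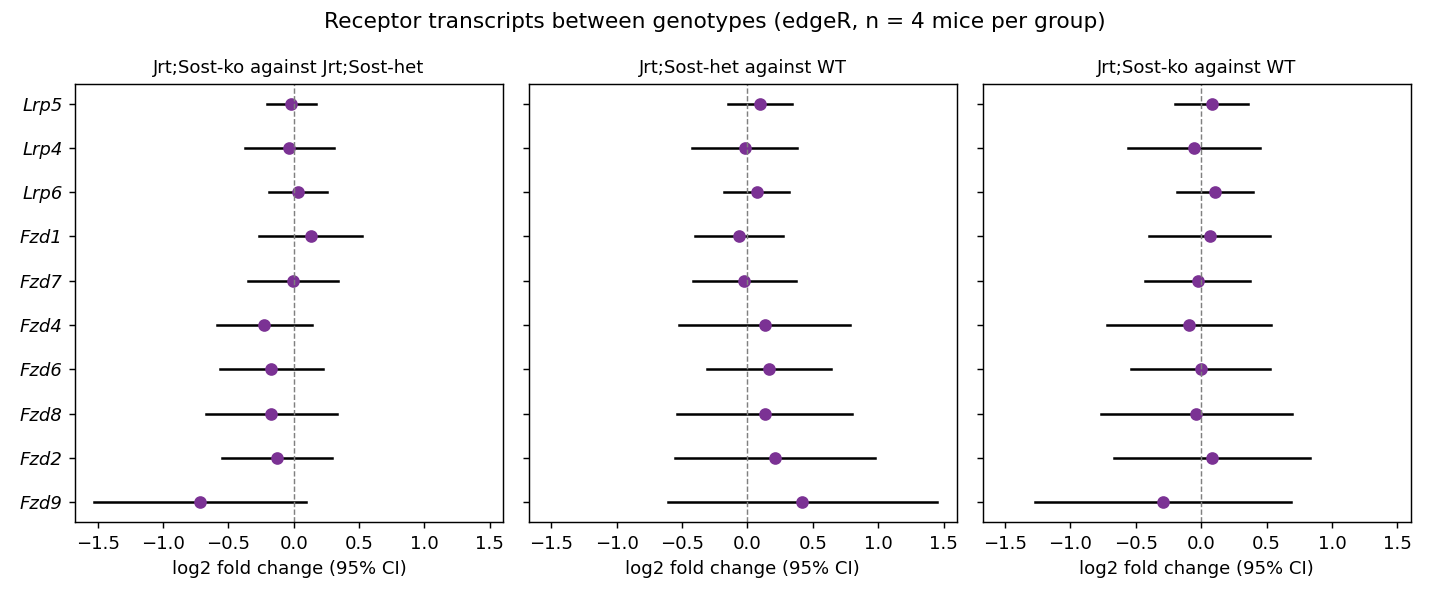
Log2 fold change of each receptor gene with its 95% confidence interval from edgeR in the 3 comparisons of genotypes, 4 mice per group. All 30 intervals include 0, the intervals of *Lrp5* are the narrowest in each comparison, and *Fzd9* has the widest.

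The receptor genes also varied between mice of the same group. With each gene set to its own mean over the 12 mice, the average of the 10 genes was highest in WT mouse 4 (0.47 on the log2 scale), where all 10 genes were above their mean and 6 had their highest value. It was lowest in WT mouse 2 (-0.50), Jrt;Sost-ko mouse 4 (-0.41) and WT mouse 1 (-0.29), in each of which 0 of the 10 genes were above their mean. In Jrt;Sost-het mice 1 to 4, 7, 7, 4 and 6 of the 10 genes were above their mean, so that genes of 1 mouse lay on both sides. The coefficient of variation over 12 mice was 10.3% for *Lrp5*, 11% for *Lrp6* and 18.1% for *Lrp4*. It ran from 15.8% for *Fzd7* to 47.1% for *Fzd9* among the Frizzled genes, beside a median of 13.9% over 17245 expressed genes.

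The proportions of the co-receptors are given as ratios within each mouse. The *Lrp6* to *Lrp5* ratio of CPM per kb was 0.563 ± 0.0373 (SD, n = 12) and lay between 0.483 and 0.613. It was 0.564 ± 0.0333 among WT mice, 0.554 ± 0.0551 among Jrt;Sost-het mice and 0.571 ± 0.0273 among Jrt;Sost-ko mice (SD, n = 4 each), and these group means lay within 1 SD of each other. The *Lrp4* to *Lrp5* ratio was wider, between 0.62 and 0.982 over the 12 mice, with group means of 0.861 ± 0.103, 0.804 ± 0.0468 and 0.789 ± 0.118.

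To describe what these differences between mice went along with, the slope of each gene was fitted within groups on the mean log2 CPM of 16 skeletal muscle markers. Of the 10 receptor genes, 8 rose with the muscle score and 0 fell, beside 8.78% of all genes that rose. *Fzd8* had the steepest of these slopes, 0.35 on the log2 scale per SD of the score (SE 0.0892, edgeR adjusted p = 0.025), followed by *Fzd4* with 0.30 (SE 0.0765, adjusted p = 0.0257). *Lrp4*, which on muscle fibres also serves as the receptor for agrin, had a slope of 0.26 and the lowest adjusted p of the 10 in edgeR, 0.00742. *Lrp5* and *Lrp6* had shallow slopes of 0.12 and 0.13. *Fzd2* (0.26) and *Fzd9* (0.29) had adjusted p of 0.139 and 0.269 in edgeR. An SD of the score is 2.91 on the log2 scale, so that the muscle markers themselves varied far more than the receptors.

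The same fit was made on 12 bone cell markers (SD 0.386 on the log2 scale). Here 9 of the 10 genes rose with the score and 0 fell, beside 9.71% of all genes that rose. The slopes of the 9 were 0.46 for *Fzd8*, a receptor known to restrain osteoclast formation, 0.43 for *Fzd2*, 0.33 for *Fzd4*, 0.31 for *Fzd6*, 0.30 for *Lrp4*, 0.22 for *Fzd1*, 0.20 for *Fzd7*, 0.17 for *Lrp6* and 0.13 for *Lrp5*. *Fzd8* had the lowest adjusted p, 0.00174 in edgeR. *Fzd9* had a slope of 0.47 with an adjusted p of 0.0794 in edgeR. The median slope of the 10 genes was 0.30 on the bone cell score and 0.25 on the muscle score, beside -0.0059 and -0.0049 over all genes. Bone cell scores were 7.50, 7.19, 6.95 and 7.08 in Jrt;Sost-het mice 1 to 4. In Jrt;Sost-ko mice 1 to 4 they were 7.54, 7.74, 7.56 and 7.07. The bone cell score was not used as a covariate between genotypes, and its part in those fold changes was not tested.

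The calls rested on a few mice, and the slopes were also smaller in some fits. Without WT mice 3 and 4 no receptor gene was called on either score, beside 2.11% of all genes that rose with the muscle score and 0.124% with the bone cell score, although all 10 slopes remained positive on both. On the muscle score, edgeR called 0 of the 10 without WT mouse 2 (3.09% of all genes rose), 1 without WT mouse 4 (4.64%), 5 without Jrt;Sost-ko mouse 3 (6.56%) and 1 without Jrt;Sost-ko mouse 4 (8.85%). On the bone cell score, it called 5 without WT mouse 1 (7.92%), 5 without WT mouse 2 (3.99%), 2 without WT mouse 4 (1.97%) and 5 without Jrt;Sost-ko mouse 4 (6.23%). With both scores fitted together, which was added after the slopes had been seen, 0 of the 10 were called on the muscle score (1.73% of all genes) and 2, *Lrp4* and *Fzd8*, on the bone cell score (2.62%). All 10 slopes were positive in each of these fits. With 1 mouse left out, the median slope of the 10 genes lay between 0.21 and 0.27 on the muscle score and between 0.27 and 0.33 on the bone cell score. It was 0.17 and 0.24 without WT mice 3 and 4, and 0.12 and 0.19 with both scores in 1 fit. The main fits had 0.25 and 0.30. With both scores in 1 fit, the lowest slope on the muscle score was 0.012.

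**Figure D4:**
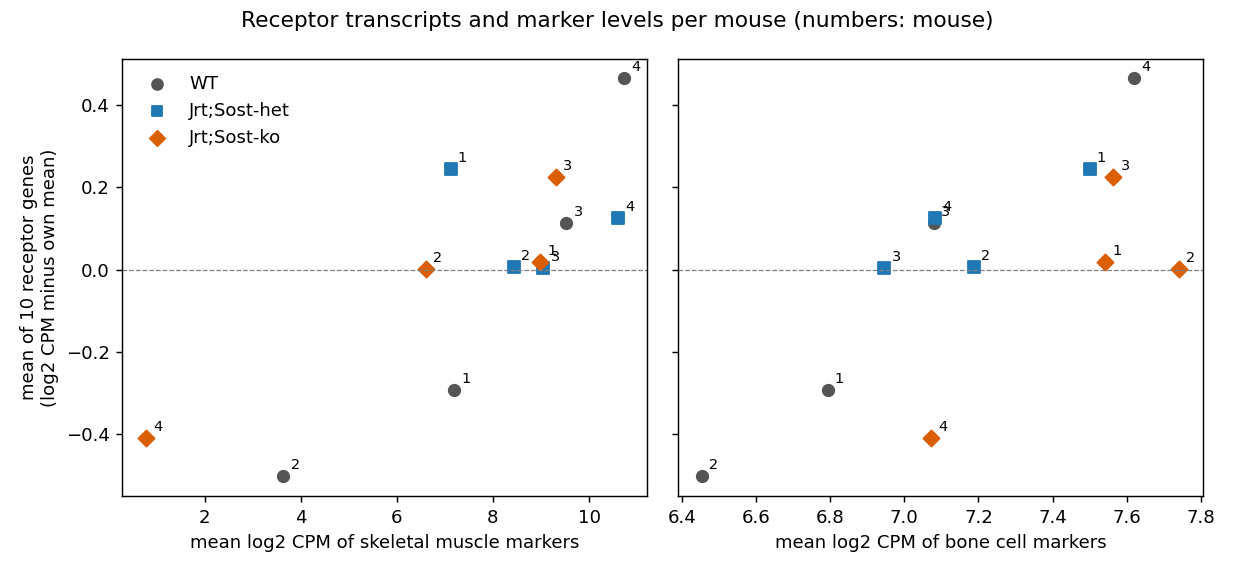
Mean of the 10 receptor genes in each mouse (log2 CPM of each gene minus its own mean over 12 mice) against the mean log2 CPM of the skeletal muscle markers (left) and of the bone cell markers (right), with the number of the mouse beside each point. WT mouse 2 and Jrt;Sost-ko mouse 4, at -0.50 and -0.41, have the lowest muscle markers, and WT mouse 4, at 0.47, has the highest.

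**Figure D5:**
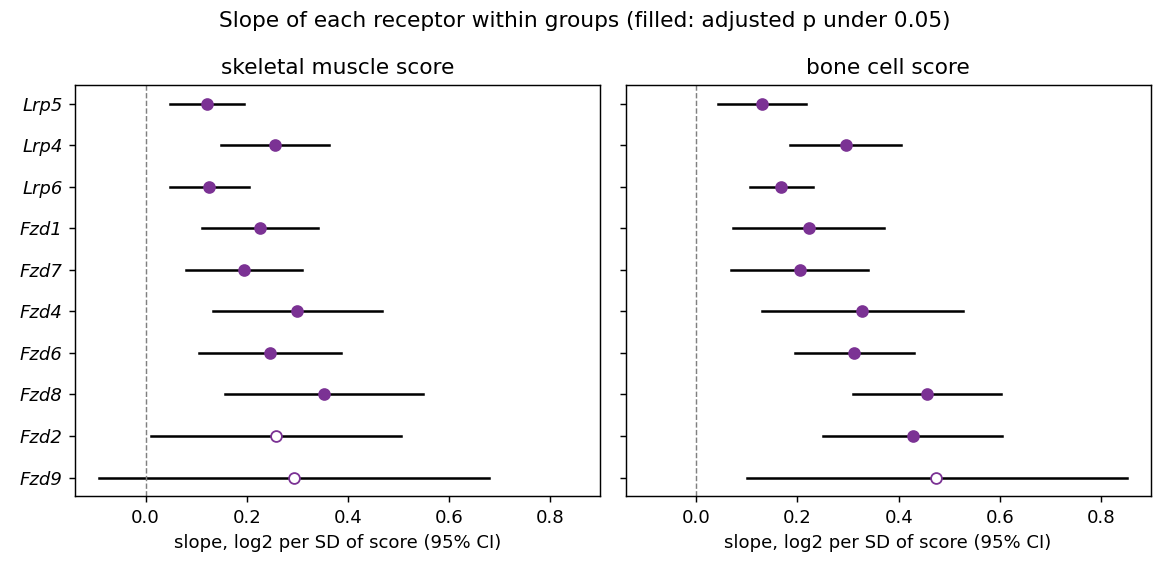
Slope of each receptor gene within groups on the skeletal muscle score and on the bone cell score, in log2 per SD of the score with its 95% confidence interval, from fits over 12 mice with the group as a term. Filled symbols mark an adjusted p under 0.05, reached by 8 and 9 of the 10 genes, and all 20 slopes are above 0.

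Markers of other cell types also differed between these mice. WT mouse 2 and WT mouse 1, with low receptor levels, had neutrophil markers at a mean log2 CPM of 10.97 and 10.79, and Jrt;Sost-ko mouse 4 had 10.67. WT mouse 4 and Jrt;Sost-ko mouse 3, with high receptor levels, had 10.16 and 10.13, the lowest of the 12 mice. Other mice did not follow this order. Jrt;Sost-het mouse 1, with a receptor average of 0.24 beside 0.23 in Jrt;Sost-ko mouse 3, had 10.37. Jrt;Sost-het mice 2 and 3, with receptor averages of 0.006 and 0.004, had 10.71 and 10.74, above Jrt;Sost-ko mouse 4. Endothelial markers were lowest in WT mouse 2 (4.91) and highest in WT mouse 4 (5.70). Osteoclast and chondrocyte markers were lowest in WT mouse 2 (4.89 and 1.91) and highest in Jrt;Sost-het mouse 1 (6.33 and 7.21). Erythroid markers were highest in WT mouse 1 (11.36) and WT mouse 2 (11.18), while WT mouse 4 had 10.49. The part of these markers in the slopes was not tested.

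The genes whose pattern over the 12 mice was most like that of each co-receptor were found by the mean absolute difference of standardised log2 CPM over 17244 other genes, where the median gene differed by 1.11 to 1.13 SD. For *Lrp4* they were *Adamtsl1* (0.155 SD), *Nfatc4* (0.176 SD) and *Lpar1* (0.219 SD). For *Lrp5* they were *Sbf2* (0.196 SD), *Gas1* (0.231 SD) and *Colec12* (0.26 SD). For *Lrp6* they were *Atp8b2* (0.182 SD), *Zfhx4* (0.184 SD) and *Arhgap32* (0.188 SD). No gene was named for more than 1 of the 3 co-receptors. Only 3 genes were listed for each, so this cannot show whether their patterns differ.

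Genes that act beside these receptors were grouped into 6 lists. Besides *Sost*, edgeR called 0 of their members in any of the 3 comparisons of genotypes. At an unadjusted p under 0.05 there were 5 of 48 tested members with loss of *Sost* in Jrt mice (*Sost*, *Dkk1*, *Dkk2*, *Ryk* and the kinase gene *Csnk1g3*), beside 5.02% of all genes. There was 1 of 49 in Jrt;Sost-het against WT (*Dkk2*), beside 2.14%, and there were 4 of 48 in Jrt;Sost-ko against WT (*Sost*, *Dkk1*, *Csnk1g3* and *Rspo1*), beside 3.89%. Without *Sost*, whose loss is set by the design, the counts for Jrt;Sost-ko mice were 4 against Jrt;Sost-het and 3 against WT. The genes other than *Sost* were named after their values were seen. Of the 5 inhibitors that bind Lrp5 and Lrp6 and could be tested (7 in the matrix), *Sost* fell in Jrt;Sost-ko mice, with a log2 fold change of -5.87 (SE 0.486, edgeR adjusted p = 0.013) against Jrt;Sost-het and -6.29 (SE 0.466, edgeR adjusted p = 0.00895) against WT mice. *Dkk1* and *Dkk2*, secreted antagonists that, like sclerostin, bind the co-receptors, had these values. *Dkk1* had 16.7 ± 7.26 CPM among WT mice, 15.7 ± 3.82 among Jrt;Sost-het mice and 26.6 ± 4.07 among Jrt;Sost-ko mice (SD, n = 4). Its log2 fold change against Jrt;Sost-het mice was 0.76 (SE 0.180), with an unadjusted p of 0.00228 and an adjusted p of 0.901 in edgeR. *Dkk2* had 4.78 ± 0.892, 6.51 ± 1.20 and 4.22 ± 1.10 CPM, with a log2 fold change of -0.62 (SE 0.227, unadjusted p of 0.0227, adjusted p = 0.901 in edgeR).

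In the other 5 lists no gene passed the test, and the 2 most abundant genes of each are given for their level. Among the other Wnt receptors (8 in the matrix), *Ryk* had 48.5 ± 2.30 CPM among Jrt;Sost-het mice and 57.6 ± 7.64 CPM among Jrt;Sost-ko mice, with a log2 fold change of 0.25 (SE 0.0968, edgeR adjusted p = 0.901), and *Fzd5* had 24.7 ± 0.355 and 25.9 ± 1.74 CPM. Per length *Fzd5* stood at 3.65 CPM per kb, between *Fzd7* and *Fzd4*. Of the 4 partners of Fzd4, *Reck* and *Adgra2*, which form a receptor complex for Wnt7 ligands on vessels, had 29.8 ± 3.16 and 30.1 ± 2.08 CPM among Jrt;Sost-het mice and 31.8 ± 4.48 and 33.2 ± 5.65 CPM among Jrt;Sost-ko mice. Of the 9 genes of receptor turnover and R-spondins, *Lgr4* and *Lgr5*, receptors for R-spondins, had 18.5 ± 5.26 and 9.71 ± 2.78 CPM among Jrt;Sost-het mice and 17.5 ± 3.59 and 9.5 ± 3.56 CPM among Jrt;Sost-ko mice.

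Among 17 genes of the receptor chaperone and membrane-proximal transducers, *Ctnnb1*, which encodes β-catenin, had 567 ± 22.6 and 572 ± 24.7 CPM, and *Csnk1a1*, a kinase that primes β-catenin for degradation, had 277 ± 7.07 and 296 ± 9.41 CPM (Jrt;Sost-het mice first, Jrt;Sost-ko mice second). Among 10 other LDL receptor family genes, *Lrp1* had 446 ± 60.1 and 433 ± 103 CPM and *Lrp10* had 123 ± 6.72 and 128 ± 1.90 CPM. Over these lists the median log2 fold change with loss of *Sost* lay between -0.05 for the inhibitors and 0.14 for the other Wnt receptors.

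On the bone cell score, with which 9.71% of all genes rose, the lists had these counts. Of the tested genes, 4 of 8 other Wnt receptors rose, 2 of 3 partners of Fzd4, 3 of 9 genes of receptor turnover and R-spondins, 2 of 5 inhibitors, 3 of 17 transducers and 4 of 8 other LDL receptor family genes, and 0 fell in any list. Examples chosen after their values were seen are *Lgr6* with a slope of 0.66 (adjusted p = 0.00119 from edgeR), *Lgr4* with 0.49 (adjusted p = 0.00143) and *Dkk1* with 0.41 (adjusted p = 0.00186). On the muscle score, with which 8.78% of all genes rose, 3 of 8, 2 of 3, 0 of 9, 2 of 5, 1 of 17 and 3 of 8 genes of these lists rose and 0 fell. *Musk*, the muscle kinase that Lrp4 activates at the neuromuscular junction, had the steepest of these slopes, 1.62 (adjusted p = 0.00331 from edgeR), and it was also chosen after its value was seen. The median slopes of the transducers were -0.0003 on the bone cell and -0.0034 on the muscle score, while those of the 10 receptor genes were 0.30 and 0.25. Differences between lists were not tested. The counts and slopes of these lists are given only with WT mice 3 and 4 included. How far they depend on these mice was not tested. Without WT mice 3 and 4, 0.124% of all genes rose with the bone cell score and 2.11% with the muscle score. No receptor gene was called on either score in those fits.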

How the data were processed

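RNA from flushed tibia shafts was poly(A)-selected and sequenced as read pairs, 1 library per mouse. The authors aligned reads to GRCm38 with STAR, and their deposited matrix holds raw counts for 47069 Ensembl genes without normalization. The counting tool, its strand setting and the annotation release are not given in the sources used here. The submitters' processing notes also name bcl2fastq 2.20, Cufflinks, Cuffdiff and DESeq. The authors' comparison tables (fold changes and p-values) and the 96 per-mouse columns in them were not used.

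Mouse numbers 1 to 4 follow the accession order within a group and do not pair mice across groups. The labels name no batch. Whether same-group mice were littermates is not given in the sources used here. Within groups, pairs of libraries differed by a chi-square per degree of freedom of 23.7 to 227, far above counting error.

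Genotypes were compared in pairs, 8 mice at a time, with edgeR 4.0.16 in R 4.3.3 (TMM, filterByExpr, glmQLFit, glmQLFTest) and Benjamini–Hochberg adjustment over all genes tested and a threshold of 0.05. Slopes on marker scores were fitted over 12 mice with group as a term. The genes of a score were left out of the share of all genes that rose with it. Log2 CPM used a prior count of 2. Exon lengths (union of exons) and positions come from GENCODE M21, which held 98.8% of the identifiers. Functions were tested on simulated counts with known changes. The alternatives were DESeq2 size factors, DESeq2 1.42.0, limma-voom (limma 3.58.1) with sample quality weights, 2 other filters, a single fit of 12 mice, the muscle score as a covariate, WT mice 3 and 4 left out, and each mouse left out.

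The receptor genes, the lists of other genes and the alternatives were chosen with earlier results of these data known. The text names the 10 receptors, *Sost*, genes of the 6 lists with an adjusted p under 0.05 in a comparison of genotypes or otherwise the 2 most abundant of a list, and the 3 genes most like each co-receptor. Other genes are marked where they appear. Protein sequences were not used here.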

Additional observations from a re-analysis of the deposited data

Results flagged for a closer look

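In 30 sets of 4 mice (10 receptor genes in 3 groups), 2 had a mouse that stood apart from the other 3 by Dixon's ratio, where chance gives about 1 in 20, or 1.5 of 30. *Lrp4* in Jrt;Sost-ko mice was flagged for its lowest value, 46.8 CPM in mouse 4 against 73.4 to 78.1 CPM in mice 1 to 3, with a gap of 0.878 of the range. *Fzd7* in Jrt;Sost-het mice was flagged for its lowest value, 13.5 CPM in mouse 2 against 18.4 to 19.1 CPM in mice 1, 3 and 4, with a gap of 0.897 of the range. Jrt;Sost-ko mouse 4 is also the mouse with the fewest skeletal muscle transcripts. The part of that in its *Lrp4* level was not tested. Jrt;Sost-het mouse 2 was within the range of its group in the muscle and bone cell scores.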

How the results depend on the processing

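No receptor gene was called between genotypes under any alternative, with each mouse left out included. The median log2 fold change of the 10 genes moved by more than the spread between mice (SD 0.299) under 1 alternative, to 0.31 for Jrt;Sost-ko against WT without WT mice 3 and 4. Signs changed for the following values. For the Jrt;Sost-ko group against Jrt;Sost-het, limma-voom gave 0.014 for *Lrp4* and 0.13 for *Fzd7*, the fit without a filter gave 0.0011 for *Fzd7*, and the muscle covariate gave 0.097 for *Lrp4*, 0.043 for *Lrp5* and 0.12 for *Fzd7*. For Jrt;Sost-het against WT, limma-voom gave 0.035 for *Lrp4*, and leaving out WT mice 3 and 4 gave 0.31 for *Lrp4*, 0.19 for *Fzd1* and 0.23 for *Fzd7*. For Jrt;Sost-ko against WT, limma-voom gave 0.034 for *Lrp4*, 0.073 for *Fzd4*, 0.10 for *Fzd6*, 0.073 for *Fzd7* and 0.13 for *Fzd8*. The muscle covariate gave 0.093, 0.099, 0.14, 0.074 and 0.19 for the same 5 genes. Leaving out WT mice 3 and 4 gave 0.26, 0.45, 0.31, 0.21 and 0.46 for them and 0.58 for *Fzd9*. The cause was not tested.

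With each mouse left out in turn, log2 fold changes that changed sign ranged as follows. Against Jrt;Sost-het they ranged from -0.10 to 0.10 for *Lrp4*, -0.086 to 0.034 for *Lrp5*, -0.034 to 0.11 for *Lrp6*, -0.24 to 0.0066 for *Fzd2* and -0.11 to 0.093 for *Fzd7*. For Jrt;Sost-het against WT they ranged from -0.16 to 0.12 for *Lrp4*, -0.15 to 0.032 for *Fzd1*, -0.028 to 0.43 for *Fzd4*, -0.11 to 0.12 for *Fzd7* and -0.053 to 0.42 for *Fzd8*. For Jrt;Sost-ko against WT they ranged from -0.20 to 0.091 for *Lrp4*, -0.0091 to 0.15 for *Lrp5*, -0.038 to 0.21 for *Fzd1*, -0.10 to 0.43 for *Fzd2*, -0.26 to 0.21 for *Fzd4*, -0.13 to 0.19 for *Fzd6*, -0.12 to 0.11 for *Fzd7*, -0.23 to 0.25 for *Fzd8* and -0.61 to 0.066 for *Fzd9*.

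The number of receptor genes called on the scores fell to 0 on both without WT mice 3 and 4, and to 0 (muscle) and 2 (bone cell) with both scores in 1 fit. With each mouse left out it ranged from 0 to 8 on the muscle and from 2 to 9 on the bone cell score. In these fits, the genes that rose among all tested ran from 540 of 17466 to 1887 of 17464 on the muscle score. On the bone cell score they ran from 342 of 17370 to 2420 of 17468. With DESeq2 size factors 8 and 9 receptor genes were called, beside 1559 of 17229 and 1699 of 17233 genes that rose. No slope turned negative in any of these fits. No paired analysis was possible because mouse numbers follow accession order only. Depth limits *Fzd9* most, with 44 to 172 counts per library.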
